A study of Mus musculus with 15 samples.

Results

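CD11b-high and CD11b-low alveolar macrophages of the same kind of mouse were compared, so that the 2 sorted fractions differ by surface CD11b and not by genotype or age. The 6 libraries of this comparison are 3 of CD11b-high and 3 of CD11b-low cells of 12-week-old Cybb knockout mice, out of 15 libraries in 5 groups of 3. The members were chosen by the labels alone: knockout, 12 weeks, and the CD11b gate. All cells came from bronchoalveolar lavage (BAL, washing of the airspaces) of untreated C57BL/6 mice and were sorted as CD45+ Ly6G- SiglecF+ CD11c+, then split by CD11b. The other 9 libraries are CD11b-low cells of wild-type mice at 12 weeks and of knockout and wild-type mice at 4 weeks. No CD11b-high group of wild-type mice was analysed here. Both fractions compared carry the Cybb knockout, a model of chronic granulomatous disease (CGD). Cybb encodes the catalytic subunit of the enzyme with which phagocytes make superoxide, and which part of the gene was removed is not given in the sources used here. Each library pooled 2 to 3 mice and about 50000 cells, so the spread between libraries is one between pools and not between single mice.

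Alveolar macrophages clear dust, microbes and surplus surfactant from the airspaces, and in the healthy lung they carry SiglecF and CD11c at the surface and little CD11b. CD11b, encoded by Itgam, is the alpha chain of the integrin CR3, which binds complement-coated particles, fibrinogen and ICAM-1. Surface CD11b is high on monocytes, neutrophils and macrophages that derive from monocytes, and it also appears on alveolar macrophages during inflammation.

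RNA was sequenced and counted per gene. The 6 libraries held 22856331 to 36367786 counts, and CD11b-high replicate 2 was the smallest. Levels below are counts scaled to a common library size (CPM), with library totals corrected by TMM factors, and values of 3 libraries stand in the order of replicates 1, 2 and 3. Differences are log2(CD11b-high / CD11b-low) with the standard error (SE) of edgeR's quasi-likelihood fit of all 15 libraries, n = 3 libraries a group, and p-values are adjusted over the 13284 genes tested. The title numbers were taken to pair the fractions, although the labels do not say that same-numbered fractions came from the same mice. Deviations from the group means correlated over genes by 0.429, 0.353 and 0.113 between same-numbered libraries and by -0.362 to 0.067 between others. Deviations within a group cancel out, so a positive value for 1 pair pushes others down. These values alone therefore cannot settle the pairing, and the main fit has no term for it. A fit of these 6 libraries with the replicate number as a block is called the block below. It is given where it changes the call of a gene or the count of a list.

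The gate and the knockout were checked first. Itgam stood at 30.7, 88.4 and 61.5 CPM in CD11b-high and at 3.11, 4.44 and 6.26 CPM in CD11b-low cells, 13.1-fold higher (log2 3.71, SE 0.44, adjusted p = 0.00102). The 3 libraries of each gate did not overlap, and each pair showed the difference, by 3.28, 4.29 and 3.28 on the log2 scale. Cells had been split by CD11b protein, so this is a check of the sort and not a finding. The markers used on both sides of the split did not pass the test. Itgax, which encodes CD11c, stood at 749, 467 and 586 against 520.3, 386 and 322 CPM (log2 0.55, adjusted p = 0.585). Siglecf stood at 200.5, 170.2 and 200.3 against 185, 245 and 290.1 CPM (log2 -0.34, adjusted p = 0.718). Ptprc, which encodes CD45, stood at 492, 714 and 437 against 452, 764 and 812 CPM (log2 -0.30, adjusted p = 0.815). The ranges overlapped for Siglecf and Ptprc, and for Itgax CD11b-high replicate 2 lay below CD11b-low replicate 1. Ly6g, the neutrophil antigen that the gate excludes, had 0 counts in all 6 libraries. Cybb stood at 146, 173 and 129 against 134, 186 and 169 CPM in the knockout fractions and at 899, 957 and 1221 CPM in wild-type cells of the same age, and the difference between the gates did not pass (log2 -0.13, adjusted p = 0.926).

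Of 13284 genes, 92 passed the threshold of an adjusted p of 0.05 (0.693% of genes tested), and 76 of them were higher (0.572%) and 16 lower (0.12%) in CD11b-high cells. Counts of list members below are to be read beside these shares, and a gene can be on more than 1 list. The genes that rose included matrix proteases, CC chemokines, growth factors, complement components and genes known from neutrophils, and those that fell included formyl peptide receptors, the neuropeptide galanin and a subunit of the MHC class II loading machinery. All 92 differed by more than 2-fold, and the median log2 difference over all genes tested was 0.01. The 3 libraries of each gate did not overlap for 89 of the 92, and without a test they did not overlap for 13.8% of all genes tested. The 92 were chosen on these same libraries, so their large differences and lack of overlap follow in part from that choice. Lack of overlap was also a condition for naming the largest rises and falls below, so it does not support them. An unadjusted p under 0.05 was reached by 1332 genes. The number past the threshold depended on single libraries. It was 247 without CD11b-high replicate 1, and 20 and 21 without CD11b-high replicates 2 and 3. It was 88, 3 and 2 without CD11b-low replicates 1, 2 and 3, in that order. The block on the replicate number gave 252 genes in the 6 libraries (210 higher and 42 lower), 71 of them among the 92. A fit of the 6 libraries without a block gave 18, all higher, 16 of them among the 92, so no fall passed there. All 92 kept their direction in each of those fits. These fits reuse the libraries on which the 92 were chosen, so the kept direction is no separate support. Of the 92, Itgam and Npy alone kept their call whichever 1 of the 6 libraries was left out.

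**Figure D1:**
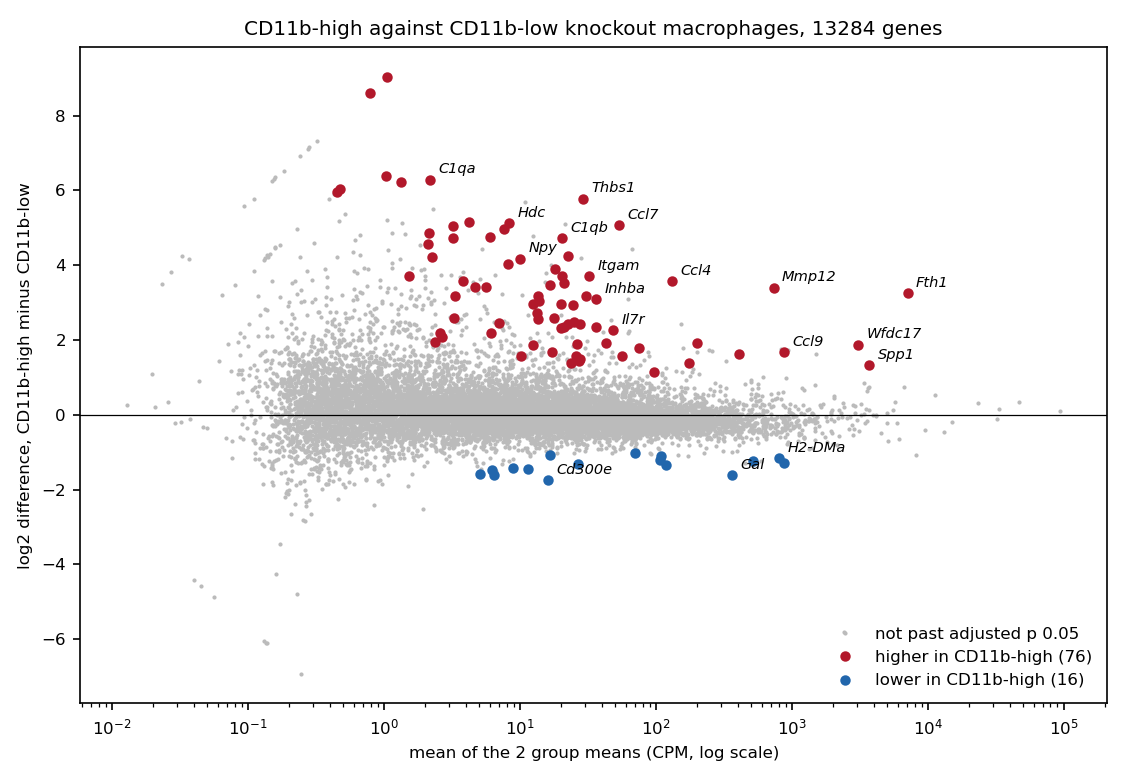
Each point is 1 of 13284 genes, with the mean of the CD11b-high and CD11b-low group means (CPM, log axis) against the log2 difference between the gates (CD11b-high minus CD11b-low). Red points are the 76 genes that passed as higher in CD11b-high cells and blue points the 16 that passed as lower; the rises reach larger sizes than the falls, and Fth1, Spp1 and Wfdc17 are the most abundant of the genes that rose.

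Replicate 1 showed the smallest differences between the gates among the genes that rose. The median log2 ratio of the 76 genes was 1.58 in the pair of replicate 1, 3.61 in that of replicate 2 and 3.29 in that of replicate 3, and 68 of the 76 had their smallest ratio in replicate 1. CD11b-high replicate 1 was the lowest of the 3 CD11b-high libraries for 55 of the 76. The 16 genes that fell had median log2 ratios of -1.09, -1.14 and -1.53. Each of the 76 was positive and each of the 16 negative in all 3 pairs. These ratios describe genes that were chosen on the same libraries.

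**Figure D2:**
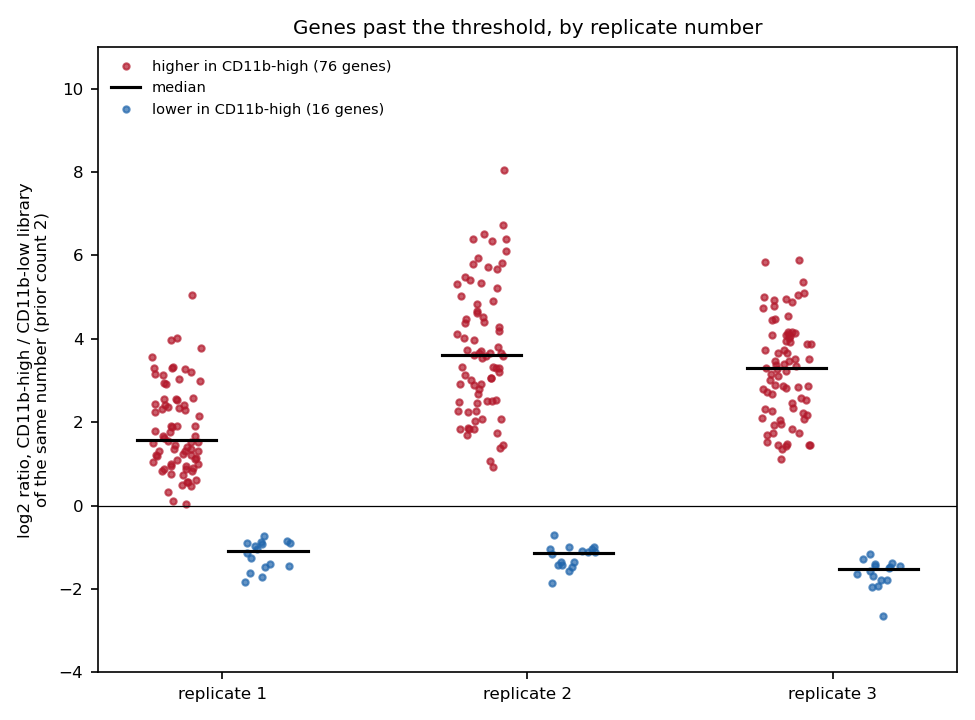
Log2 ratio of the CD11b-high to the CD11b-low library of the same number (vertical axis, computed with a prior count of 2) for the 76 genes that passed as higher (red) and the 16 that passed as lower (blue) in CD11b-high cells, by replicate number; black bars are medians. The medians of the red points are 1.58, 3.61 and 3.29, and all points lie on the side of 0 that their group names.

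The promoters of the genes that rose were read for short sequence motifs. RefSeq starts on GRCm38.p6 were in the table used here for 62 of the 76 genes, and 250 bases upstream of each start were searched on both strands. TGANTCA, the letters of the AP-1 motif that FOS and JUN proteins bind, lay upstream of 15 of the 62 genes (24.2%). It lay upstream of 2 of the 14 genes that fell and had a promoter (14.3%), and of 5.52% of the 9758 tested genes with a promoter. GGGNN followed directly by TTTCC, letters of the NF-kappaB motif, lay upstream of 6 of the 62 (9.68%) and of 1.78% of tested genes. The shares were 11.3% against 14.1% for TGACNNNGC, the core of the antioxidant response element, 3.23% against 10.02% for the E-box CACGTG, and 6.45% against 3.33% for GAGGAAGT, a PU.1 motif. The first 2 motifs were thus more common upstream of the genes that rose than of tested genes at large, and the E-box less common, as a description of these windows with no test. AP-1 was also more common upstream of the genes that fell than of tested genes, on 2 genes. Of the 14 genes that fell, 1 had the E-box (7.14%) and none the NF-kappaB, antioxidant response element or PU.1 letters. Below are the 250 bases upstream of Itgam, the gated gene, where none of the 5 motifs was found, and of 4 genes that rose, picked after the matches were seen, with matches in capitals and the first base of each match counted back from the start. TGANTCA and TGACNNNGC can match the same bases.
Itgam, chr7:128062390-128062639, plus strand: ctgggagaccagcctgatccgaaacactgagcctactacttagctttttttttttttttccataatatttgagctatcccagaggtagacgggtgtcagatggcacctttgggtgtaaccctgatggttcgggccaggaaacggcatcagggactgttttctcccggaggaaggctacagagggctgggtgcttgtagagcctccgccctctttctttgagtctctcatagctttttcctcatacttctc
Mmp12 (second start), chr9:7347124-7347373, plus strand, TGAGTCA at -44: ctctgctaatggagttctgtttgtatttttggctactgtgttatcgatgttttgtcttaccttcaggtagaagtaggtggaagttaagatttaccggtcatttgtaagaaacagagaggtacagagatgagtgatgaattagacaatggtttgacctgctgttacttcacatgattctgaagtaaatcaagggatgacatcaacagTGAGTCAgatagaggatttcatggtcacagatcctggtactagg
Mmp13, chr9:7272264-7272513, plus strand, TGACTCA at -35: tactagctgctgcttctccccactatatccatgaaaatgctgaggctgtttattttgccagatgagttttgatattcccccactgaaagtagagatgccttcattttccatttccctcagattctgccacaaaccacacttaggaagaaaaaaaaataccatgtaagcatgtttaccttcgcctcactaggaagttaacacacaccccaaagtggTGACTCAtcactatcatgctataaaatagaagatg
Ccl9, chr11:83578637-83578886, minus strand, TGAATCA at -53 and GGAAAGCCCC (the NF-kappaB letters read on the other strand) at -35: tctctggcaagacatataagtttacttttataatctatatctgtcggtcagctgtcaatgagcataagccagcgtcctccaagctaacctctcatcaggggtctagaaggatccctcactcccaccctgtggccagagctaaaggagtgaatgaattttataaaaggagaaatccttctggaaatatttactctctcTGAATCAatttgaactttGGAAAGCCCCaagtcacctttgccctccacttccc
Osgin1, chr8:119436897-119437146, plus strand, TGACTCA at -97: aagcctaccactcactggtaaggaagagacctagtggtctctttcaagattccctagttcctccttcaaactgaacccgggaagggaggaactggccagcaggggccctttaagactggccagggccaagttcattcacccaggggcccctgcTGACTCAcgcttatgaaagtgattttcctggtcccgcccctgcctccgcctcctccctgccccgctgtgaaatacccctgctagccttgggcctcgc

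Matrix proteases and a matrix protein rose. Mmp12 (chr9:7344381-7369499), macrophage elastase, stood at 1055, 2133 and 843 CPM in CD11b-high and 182, 117 and 83.4 CPM in CD11b-low cells, 10.5-fold higher (log2 3.40, SE 0.50, adjusted p = 0.00527). Every CD11b-high library lay far above every CD11b-low library. Mmp13, collagenase 3, whose start lies near that of Mmp12 on chromosome 9, stood at 0.693, 27.1 and 6.88 against 0.427, 0.447 and 0.392 CPM (log2 4.76, SE 0.97, adjusted p = 0.0408). Its rise came from CD11b-high replicates 2 and 3, and replicate 1 was close to the CD11b-low level. Without CD11b-high replicate 2 its log2 difference was 3.15, and with the block its adjusted p was 0.173. Thbs1, thrombospondin 1, a matrix glycoprotein that can activate latent TGF-beta, stood at 1.75, 71.6 and 97.03 against 0.122, 0.716 and 2.28 CPM (log2 5.78, SE 1.13, adjusted p = 0.0326). Here the groups overlapped, since CD11b-high replicate 1 lay below CD11b-low replicate 3, and yet each pair differed by more than 3 on the log2 scale. The log2 difference was 5.14 without CD11b-high replicate 3 and 7.06 without CD11b-low replicate 3. Adam8, a membrane protease that sheds adhesion molecules, stood at 3.02, 37.7 and 25.2 against 2.96, 3.10 and 2.35 CPM (log2 2.97, adjusted p = 0.0334, and 0.259 with the block). It was flat in the pair of replicate 1 (log2 ratio 0.03) and higher in the others. Its log2 difference was 2.33 without CD11b-high replicate 2. These 4 were the members that passed of 23 tested matrix proteases and remodelling genes, beside 0.572% of all genes tested that rose. None fell, and 20 of the 23 differences were positive (median log2 1.13). With the block 4 passed as higher, of which Mmp12 and Thbs1 were among the first 4, and 1 as lower, Mmp8. With CD11b-high replicate 1 left out 7 of them passed as higher.

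**Figure D3:**
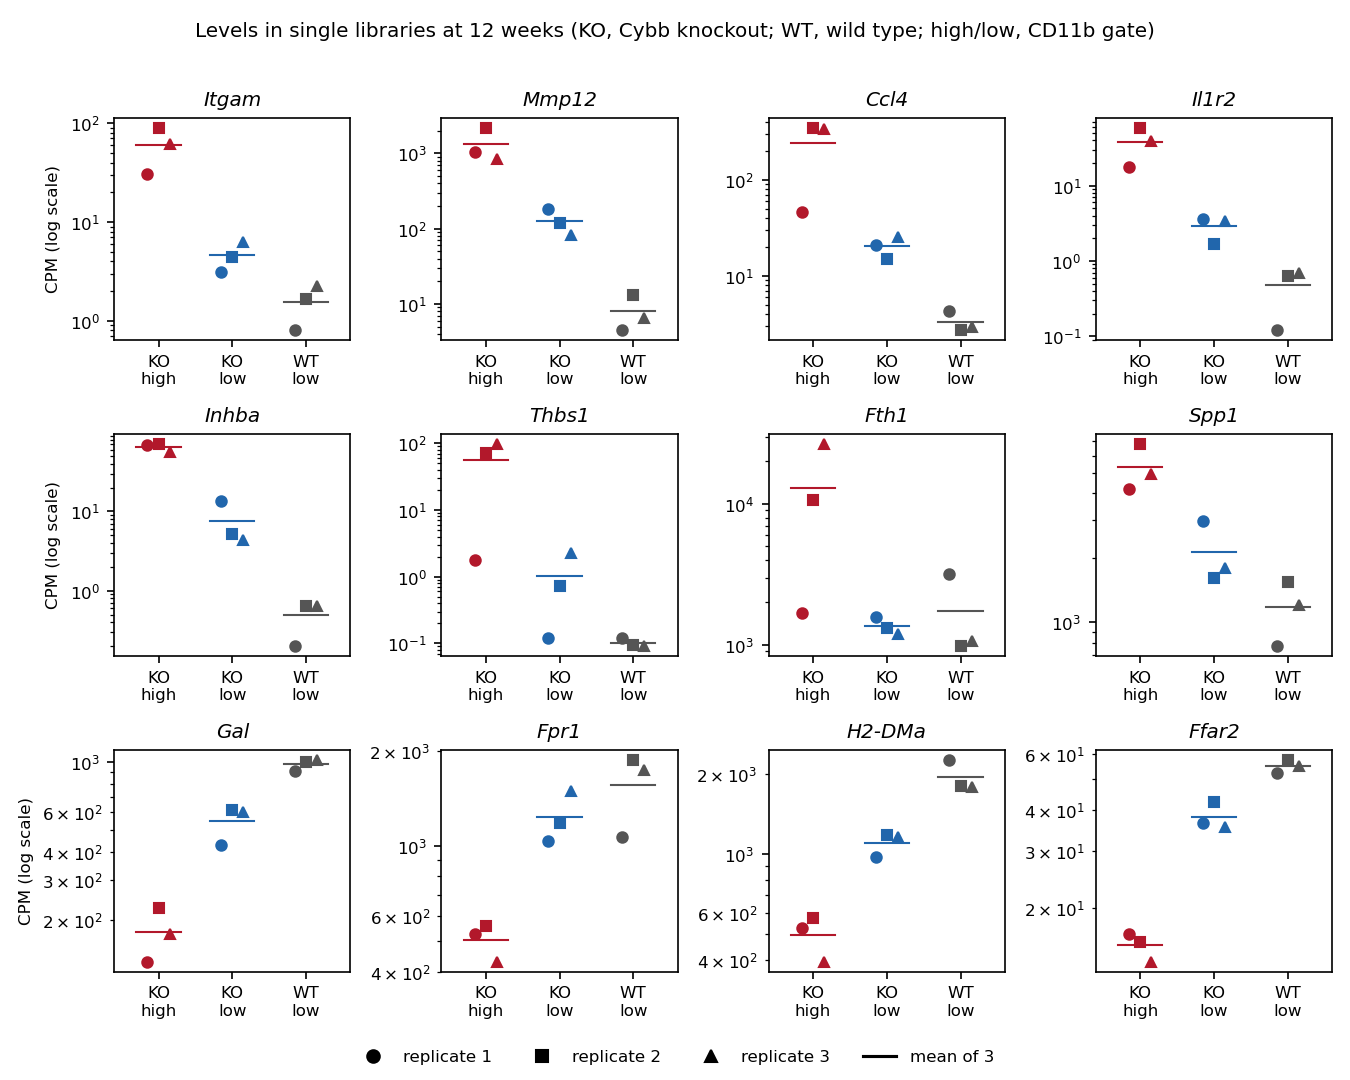
Level in each library (CPM, log axis, scaled per panel) of 12 genes in CD11b-high knockout (red), CD11b-low knockout (blue) and CD11b-low wild-type cells (grey) at 12 weeks; symbols mark the replicate number and bars the mean of 3. The 2 upper rows show genes that rose in CD11b-high cells, of which Ccl4, Thbs1 and Fth1 have CD11b-high replicate 1 far below the other 2, and the bottom row shows genes that fell, where the 3 groups form separate steps for Gal, H2-DMa and Ffar2.

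Of the CC chemokines, which draw monocytes and T cells, 3 rose. Ccl4 (chr11:83662584-83664683), the chemokine MIP-1 beta, stood at 46.9, 346 and 338 against 21.1, 15.03 and 25.5 CPM, 11.8-fold higher (log2 3.57, SE 0.51, adjusted p = 0.00527). CD11b-high replicates 2 and 3 were alike, replicate 1 was well below them, and no library overlapped with the other gate. Ccl7, a ligand of CCR2 that recruits monocytes, stood at 11.7, 172 and 129 against 2.14, 3.04 and 4.11 CPM, 33.7-fold higher (log2 5.07, SE 0.85, adjusted p = 0.0149). Ccl9, a macrophage chemokine with an AP-1 and an NF-kappaB match in the promoter above, was abundant in both gates, at 1288, 1531 and 1174 against 560.0, 239 and 458 CPM (log2 1.67, SE 0.34, adjusted p = 0.0304). With the block the adjusted p was 0.166 for Ccl4 and 0.073 for Ccl7, both past the threshold no more, while Ccl9 kept its call. All 12 tested members had positive differences, with a median of 2.38. With all libraries 3 passed, beside 0.572% of all genes tested that rose, and 8 passed without CD11b-high replicate 1. Of those that did not pass with all libraries, Ccl2, the main CCR2 ligand, stood at 22.8, 184 and 131 against 15.9, 7.66 and 16.0 CPM (adjusted p = 0.159), with replicate 1 near the CD11b-low level. Ccl8 stood at 0.367, 55.9 and 7.78 against 0.244, 0.209 and 0.783 CPM (adjusted p = 0.0949), again with replicate 1 near the CD11b-low level. Ccl6, the most abundant chemokine, stood at 34200, 22150 and 21240 against 25640, 13360 and 23050 CPM (adjusted p = 0.795), with overlap. The CXC chemokines had a median of -0.07 over 8 tested genes, and 1 passed. That was Cxcl16, a membrane-bound chemokine and scavenger receptor, at 31.7, 44.4 and 47.3 against 17.02, 7.81 and 8.48 CPM (log2 1.89, SE 0.38, adjusted p = 0.0267), with no overlap.

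Growth factors and a decoy receptor rose, and Tnf and Il1b did not pass. Inhba (chr13:16011851-16031621), which encodes the beta A chain of activin A, stood at 68.9, 70.1 and 56.5 against 13.3, 5.22 and 4.41 CPM, 8.51-fold higher (log2 3.09, SE 0.54, adjusted p = 0.0149). The CD11b-high libraries were close to each other, and CD11b-low replicate 1 was the highest of its gate; without it the log2 difference was 3.75. Csf1, the growth factor of the macrophage lineage, stood at 10.2, 31.5 and 59.8 against 4.61, 1.16 and 0.946 CPM (log2 3.91, SE 0.75, adjusted p = 0.0221, and 0.22 with the block). Its log2 difference was 3.21 without CD11b-high replicate 3 and 4.99 without CD11b-low replicate 1. Pdgfa, a mitogen of fibroblasts, was low in both gates, at 0.978, 4.17 and 3.41 against 0.214, 0.239 and 0.196 CPM (log2 3.70, adjusted p = 0.0213). Il1r2, the decoy receptor that binds IL-1 without signalling, stood at 17.4, 57.04 and 39.2 against 3.60, 1.70 and 3.36 CPM, 13.1-fold higher (log2 3.71, SE 0.53, adjusted p = 0.00527). None of these 4 overlapped between the gates, which was a condition for naming Csf1 and Il1r2 among the largest rises. These 4 genes were the members that passed of 23 tested cytokines, growth factors and decoys (median log2 1.08), beside 0.572% of all genes tested that rose. With the block 8 passed as higher, among them Il6 and Il12b. Tnf, at 38.3, 29.0 and 73.4 against 29.7, 24.6 and 103 CPM, and Il1b, at 50.5, 94.6 and 71.9 against 38.7, 32.6 and 55.0 CPM, did not pass (adjusted p = 0.978 and 0.41). Il10, Csf2 and Csf3 were too low to be tested. Inhba and Thbs1 were also the 2 that passed of 19 tested genes of the TGF-beta and activin axis (median log2 0.33), of which 3 passed with the block. Both are counted in lists above as well.

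Complement genes and receptors of complement and lipid mediators rose. C1qb stood at 3.87, 73.4 and 41.3 against 0.976, 1.22 and 2.25 CPM, 26.6-fold higher (log2 4.73, SE 0.79, adjusted p = 0.0133, and 0.0902 with the block). Its log2 difference was 3.93 without CD11b-high replicate 2. C1qa, a second chain of the C1q molecule that tags immune complexes and dying cells, stood at 0.652, 6.84 and 5.45 against 0.0305, 0.0895 and 0.0326 CPM, which rests on 5 counts in the 3 CD11b-low libraries together (log2 6.29, adjusted p = 0.00591; 6.89 without CD11b-low replicate 2). Both were far higher in CD11b-high replicates 2 and 3 than in replicate 1. The third chain, C1qc, went the same way at 0.530, 5.58 and 2.45 against 0, 0.0596 and 0.881 CPM but overlapped and did not pass (adjusted p = 0.316). C3ar1, the receptor of the complement fragment C3a, stood at 17.9, 47.95 and 25.3 against 6.10, 3.76 and 5.22 CPM (log2 2.59, SE 0.54, adjusted p = 0.0325), with no overlap. C5ar1, the receptor of C5a, stood at 163, 423 and 280 against 403, 972 and 826 CPM, lower in each pair but not past the test (adjusted p = 0.262), and past it with the block (0.00818). Of 16 complement genes tested 3 rose, beside 0.572% of all genes tested, none fell, and the median was 0.57. With the block C1qa and C3ar1 passed as higher and C5ar1 and Cfp, properdin, as lower. Ptafr, the receptor of platelet-activating factor, stood at 164, 457 and 341 against 66.2, 95.96 and 89.6 CPM (log2 1.93, SE 0.35, adjusted p = 0.0156). Pla2g7, the secreted enzyme that hydrolyses platelet-activating factor, stood at 42.02, 104 and 36.1 against 18.03, 8.83 and 8.68 CPM (log2 2.35, SE 0.48, adjusted p = 0.0321). The receptor and the enzyme thus both rose, with no overlap; for Pla2g7 the log2 difference was 1.72 without CD11b-high replicate 2.

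Formyl peptide receptors and other receptors of the myeloid surface fell. Fpr1 (chr17:17876471-17883940), which senses formylated peptides of bacteria and mitochondria, stood at 527, 558 and 430.1 against 1039, 1181 and 1490 CPM, 2.45-fold lower (log2 -1.29, SE 0.24, adjusted p = 0.0211). Its neighbour Fpr2 stood at 66.2, 70.1 and 69.1 against 124, 151 and 169.6 CPM, 2.16-fold lower (log2 -1.11, SE 0.21, adjusted p = 0.0184). Neither overlapped, and the CD11b-high libraries of Fpr2 were close to each other. Among 15 tested chemoattractant receptors Ptafr and C3ar1 rose and Fpr1 and Fpr2 fell, so the list moved in both directions, and with the block 4 passed as higher and 3 as lower. Ffar2, a receptor of short-chain fatty acids, stood at 16.6, 15.7 and 13.6 against 36.5, 42.4 and 35.6 CPM, 2.5-fold lower (adjusted p = 0.0133). Pilra, an inhibitory receptor, stood at 297, 384 and 245 against 614, 764 and 786 CPM, 2.34-fold lower (adjusted p = 0.0149). Cd300e, an activating receptor of monocytes, stood at 8.11, 9.33 and 5.05 against 15.1, 27.8 and 31.8 CPM, 3.33-fold lower (adjusted p = 0.0234). These were also without overlap, and the spread between CD11b-high libraries was small beside the difference. Lack of overlap was a condition for naming Fpr1, Fpr2, Ffar2, Pilra and Cd300e, so it adds no support. Fcgr1, the high-affinity IgG receptor CD64, stood at 40.1, 57.7 and 41.1 against 72.95, 93.5 and 114 CPM, 2.02-fold lower (adjusted p = 0.0416). It was the 1 gene that passed of 28 tested Fc, C-type lectin and Toll-like receptors.

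Genes of alveolar macrophage identity were more often lower than higher, and 1 passed. Of 29 tested members 1 fell and none rose, beside 0.12% of all genes tested that fell. The median was -0.28, and 19 were negative. An unadjusted p under 0.05 was reached by 8, and DESeq2 called 4 and voom 5 as lower and none as higher. The libraries did not overlap for 8, all lower, against 13.8% of all genes tested in either direction. With the block 4 passed as lower. The member that fell was Gal (chr19:3409915-3414544), the neuropeptide galanin, at 131, 226 and 174 against 428, 611 and 599 CPM, 3.08-fold lower (log2 -1.62, SE 0.24, adjusted p = 0.00527). Its libraries were widely separated. Of the single libraries left out, CD11b-low replicate 3 alone cost Gal its call. Gal also lost the call in the 6 libraries without a block and without both libraries of replicate 2 or of replicate 3. Pparg, the transcription factor that sets the alveolar macrophage program, stood at 410, 322 and 285 against 432, 451 and 526 CPM (adjusted p = 0.674). Fabp1, at 291, 441 and 338 against 708, 879 and 932 CPM, and Ear2, at 1064, 972 and 749 against 1618, 1670 and 1936 CPM, were lower in each pair and did not pass (adjusted p = 0.0627 and 0.0969), although Fabp1 passed with the block (0.0135). Chil3, one of the most abundant transcripts, stood at 55020, 62300 and 39710 against 40180, 35610 and 47690 CPM (adjusted p = 0.767), with overlap. Marco, a scavenger receptor for particles, stood at 350, 167 and 213 against 764, 403 and 289 CPM (adjusted p = 0.262).

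Genes that mark macrophages of monocyte origin did not move as one. Of 24 tested, C1qa and C1qb rose and Fcgr1 fell (median 0.54), and with the block Plac8 took the place of C1qb. Ccr2, the chemokine receptor of inflammatory monocytes, stood at 7.13, 42.2 and 11.1 against 5.64, 19.2 and 14.5 CPM (adjusted p = 0.795). Ly6c2, the monocyte antigen Ly6C, stood at 1.63, 4.50 and 3.32 against 0.946, 1.49 and 0.751 CPM (adjusted p = 0.268). Apoe stood at 6.60, 11.1 and 86.3 against 5.86, 2.98 and 7.60 CPM (adjusted p = 0.213), and a single library, CD11b-high replicate 3, carried its high mean. None of the 10 tested markers of interstitial macrophages passed in edgeR, although all 10 were positive (median 1.48) and 6 had an unadjusted p under 0.05; DESeq2 called 3 as higher and voom 2, and the block called 1, Mmp9. Pf4, a platelet-type chemokine also made by interstitial macrophages, stood at 50.5, 68.7 and 33.5 against 35.5, 11.96 and 18.5 CPM (adjusted p = 0.138).

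Spp1 and other genes of lipid-laden macrophages were higher in part. Spp1, osteopontin, stood at 4190, 6775 and 4935 against 2977, 1605 and 1800 CPM, 2.49-fold higher (log2 1.32, SE 0.29, adjusted p = 0.0467, and 0.0598 with the block). It did not overlap and was among the 3 most abundant of the genes given here that rose. With Mmp12 it made up the 2 that passed of 20 tested genes of lipid-associated macrophages (median 0.44), and with the block these were Mmp12 and Trem2. Neither lipid uptake and storage (20 tested, median 0.30) nor cholesterol efflux (18 tested, median -0.08) had a member that passed in edgeR, with 4 and 3 members under an unadjusted p of 0.05; DESeq2 called none of either list and voom 1 higher and 1 lower in the first, and the block 1 lower in the first and none in the second. Cholesterol biosynthesis also had none that passed of 23 tested, while 20 were positive, 9 had an unadjusted p under 0.05 (median 0.55), DESeq2 and the block each called 2 as higher and voom 1. Msmo1, a sterol oxidase of that pathway, stood at 406, 348 and 324 against 224, 193 and 279 CPM (adjusted p = 0.565), with each CD11b-high library above each CD11b-low library. Plin2, which coats lipid droplets, stood at 7853, 4120 and 3478 against 6034, 4017 and 4804 CPM (adjusted p = 0.981), with overlap.

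Fth1, Osgin1 and Ninj1 rose, least in replicate 1. Fth1 (chr19:9980598-9985098), the ferritin heavy chain, stood at 1678, 10590 and 26450 against 1563, 1309 and 1186 CPM (log2 3.25, SE 0.69, adjusted p = 0.0416, and 0.337 with the block). Replicate 1 showed almost no difference (log2 ratio 0.10), while replicates 2 and 3 differed by 3.02 and 4.48. Without CD11b-high replicate 3 its log2 difference was 2.18. CD11b-low cells of 4-week-old mice, outside this comparison, held 11450 ± 1582 CPM of Fth1 in the knockout and 13020 ± 4057 CPM in the wild type (SD, n = 3). High Fth1 was thus not particular to CD11b-high cells. Gm6977, a processed pseudogene that shares 23.3% of its 25-base words with Fth1 transcripts, followed Fth1, at 8.97, 45.8 and 109 against 7.17, 6.02 and 4.89 CPM (log2 3.18, adjusted p = 0.0325, and 0.297 with the block), so its own level is uncertain. In the 4-week knockout and wild-type groups Gm6977 averaged 48.6 and 51.0 CPM. Fth1 alone passed of 13 tested iron genes, beside 0.572% of all genes tested that rose, and with the block Slc11a1, a metal transporter of phagosomes, alone. Osgin1, a gene induced by oxidative stress whose promoter is shown above, stood at 8.93, 20.6 and 39.98 against 4.85, 2.92 and 2.68 CPM (log2 2.73, SE 0.53, adjusted p = 0.0217, and 0.102 with the block; 2.08 without CD11b-high replicate 3). It was the 1 that passed of 26 tested NRF2 targets and antioxidant genes, of which 19 were negative (median -0.09); none passed with the block. Ninj1, which drives plasma membrane rupture in dying cells, stood at 4.40, 31.7 and 56.3 against 2.10, 4.14 and 1.99 CPM (log2 3.48, SE 0.71, adjusted p = 0.0328, and 0.165 with the block; 2.71 without CD11b-high replicate 3). All 3 of these stress genes had their smallest difference in replicate 1.

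Of the interferon-stimulated genes 2 rose. Usp18, a protease that removes ISG15 from proteins, stood at 20.8, 51.9 and 33.8 against 11.1, 6.17 and 3.72 CPM (log2 2.34, SE 0.49, adjusted p = 0.0325, and 0.0576 with the block). Ifitm3, which blocks virus entry, stood at 12.96, 33.05 and 23.7 against 6.04, 2.62 and 3.13 CPM (log2 2.56, SE 0.56, adjusted p = 0.0432). Neither overlapped. They were the 2 that passed of 31 tested, beside 0.572% of all genes tested that rose. Of the 31, 28 were positive (median 0.77), and with the block Ifitm3 and Ifit2 passed.

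Of the genes of antigen presentation by MHC class II 1 fell. H2-DMa (chr17:34119541-34139101), a chain of the H2-DM complex that loads peptide onto class II molecules, stood at 528, 573 and 394 against 974, 1182 and 1163 CPM, 2.22-fold lower (log2 -1.15, SE 0.22, adjusted p = 0.0217). Its libraries did not overlap and each pair differed in the same direction. Of the class II chains themselves, H2-Aa stood at 643, 1609 and 655 against 1420, 1883 and 1189 CPM (adjusted p = 0.759) and Cd74, the invariant chain, at 4581, 7995 and 3123 against 12570, 13970 and 6621 CPM (adjusted p = 0.418). Both were lower in each pair and overlapped between the gates, and Cd74 passed with the block (0.0397). Of 14 tested members 1 fell and none rose (median -0.58), and 10 were negative. With the block 2 passed as lower, H2-DMa and Cd74, and 1 as higher, Cd40. Cd86 and Cd40, costimulatory molecules of this list, were at 88.0, 106 and 83.5 against 60.0, 45.9 and 69.4 CPM and at 2.36, 17.4 and 9.17 against 0.0915, 1.37 and 2.35 CPM, and did not pass (adjusted p = 0.233 and 0.186); with the block Cd40 did (0.013).

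Cell cycle genes were mostly lower without passing. Of 39 tested cell cycle genes none passed in edgeR, 36 were negative (median -0.50), 12 had an unadjusted p under 0.05, DESeq2 called 1 as lower and voom none. The block called 1 as lower, Tk1, a thymidine kinase. Rrm2, a subunit of ribonucleotide reductase, stood at 67.05, 151 and 91.3 against 90.2, 172 and 124 CPM (adjusted p = 0.863), lower in each pair. Cenpm, a centromere protein that is on none of the lists, passed, at 5.87, 5.16 and 3.63 against 16.2, 13.2 and 9.59 CPM, 2.66-fold lower (adjusted p = 0.0416). Oxidative phosphorylation (45 genes, median -0.13, 4 under an unadjusted p of 0.05, 1 called higher by DESeq2 and none by voom) and fatty acid oxidation (21 genes, median -0.26, 3 under an unadjusted p of 0.05, none called by DESeq2 or voom) had no member that passed, and none with the block. Ucp2, a mitochondrial carrier of the second list, stood at 1580, 1438 and 1439 against 2596, 2844 and 2150 CPM (log2 -0.77, adjusted p = 0.254), with each CD11b-high library below each CD11b-low library. Apoptotic cell clearance had none of 19 that passed in edgeR, 3 under an unadjusted p of 0.05, 2 called higher by DESeq2, 1 by voom and 1 with the block. In that list Mfge8, a bridge between dying cells and phagocytes, stood at 3588, 1820 and 1445 against 1459, 345 and 424 CPM (log2 1.62, adjusted p = 0.188, and 0.00792 with the block). Its libraries overlapped narrowly, with CD11b-high replicate 3 just below CD11b-low replicate 1, and without the latter its log2 difference was 2.57 and passed.

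**Figure D4:**
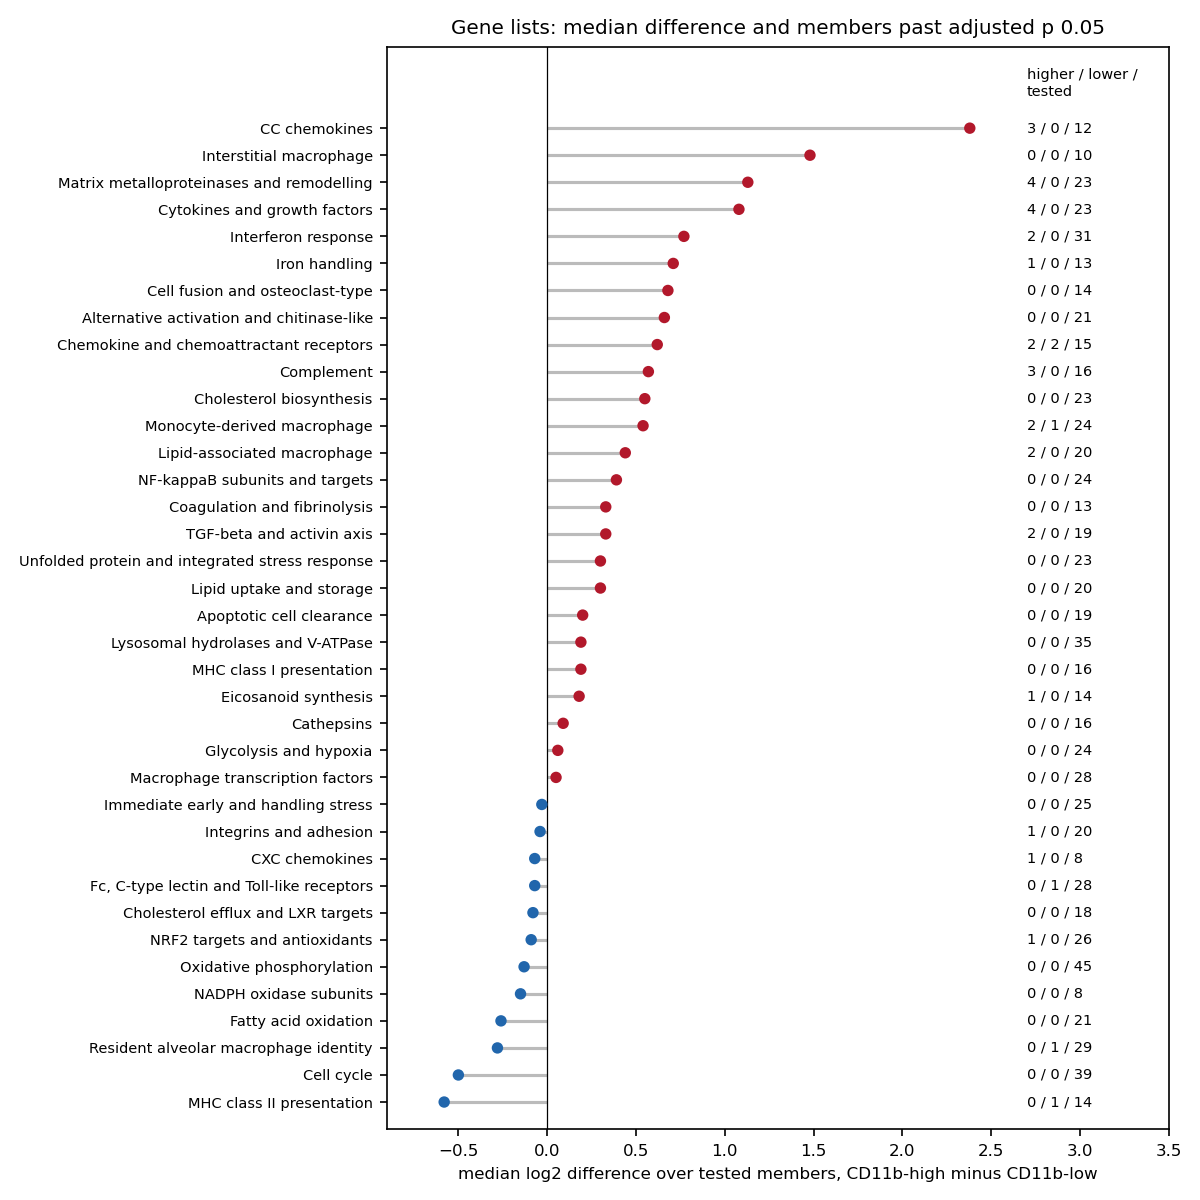
Median log2 difference between the gates (CD11b-high minus CD11b-low) over the tested members of the gene lists, red above and blue below 0, with the number of members that passed as higher, that passed as lower and that were tested at the right. Of the lists drawn, which leave out the sort markers and the markers of other cells, the CC chemokines have the highest median (2.38, with 3 of 12 passing) and MHC class II presentation the lowest (-0.58, with 1 of 14).

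Several genes known from neutrophils rose in these cells, whose gate excluded Ly6G+ cells. S100a9, a subunit of calprotectin, stood at 15.5, 63.4 and 49.8 against 3.11, 0.686 and 3.00 CPM, 18.9-fold higher (log2 4.24, SE 0.70, adjusted p = 0.0131, and 0.13 with the block). Its partner S100a8 stood at 313, 246 and 353 against 138, 35.6 and 112 CPM, did not overlap and just missed the threshold (adjusted p = 0.0504, and 0.0206 with the block). Hdc, which makes histamine, stood at 5.83, 25.03 and 17.9 against 0.366, 0.0298 and 1.01 CPM, 34.7-fold higher (log2 5.12, SE 0.94, adjusted p = 0.0211, and 0.0598 with the block). Its log2 difference was 4.53 without CD11b-low replicate 2 and 6.33 without CD11b-low replicate 3. Pglyrp1, which binds bacterial peptidoglycan, stood at 13.7, 10.8 and 6.29 against 1.10, 1.01 and 0.718 CPM, 10.8-fold higher (log2 3.43, SE 0.54, adjusted p = 0.00758). Its libraries did not overlap between the gates, which was a condition for naming it among the largest rises. Among 13 tested neutrophil markers S100a9, Hdc and Il1r2 rose, none fell, and 12 were positive (median 3.71); 6 passed as higher without CD11b-high replicate 1, and 7 as higher and 1 as lower with the block. The summed level of the 20 listed genes was 486, 564 and 583 CPM in CD11b-high, 262, 186 and 265 CPM in CD11b-low and 98.0, 127 and 134 CPM in wild-type CD11b-low cells. Ly6g and Stfa1 had no count in any of the 6 libraries. Mmp8, a neutrophil collagenase, went the other way, at 57.8, 47.2 and 43.0 against 88.7, 97.7 and 100 CPM (adjusted p = 0.248, and 0.0332 with the block). The part of other cells in these rises was not tested, and in bulk RNA more cells of a type and more RNA per cell cannot be told apart.

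Sums of marker genes were also taken for other cells. The dendritic cell list summed to 265, 970 and 644 CPM in CD11b-high and 188, 280 and 304 CPM in CD11b-low cells. None of its 15 tested members passed in edgeR, 8 had an unadjusted p under 0.05, DESeq2 called 2 and voom 1 as higher, and 3 passed with the block and 3 without CD11b-high replicate 1. Ccl22, its chemokine with the highest level, stood at 72.8, 239 and 85.9 against 61.4, 36.2 and 35.7 CPM (adjusted p = 0.107), and Ccr7, the homing receptor of migrating dendritic cells, at 17.5, 124 and 51.1 against 1.10, 13.8 and 8.61 CPM (adjusted p = 0.206, and 0.00105 with the block). Both were higher in each CD11b-high library than in each CD11b-low library. Mast cell and basophil markers summed to 6.64, 28.0 and 19.9 against 0.915, 1.01 and 1.53 CPM, in CD11b-high cells mostly Hdc, the 1 of 3 tested that passed (with the block none did), while Mcpt4, Mcpt8, Fcer1a and Ms4a2 had no count in any of the 6. T and NK cell markers summed to 1230, 1104 and 954 against 1411, 1341 and 1582 CPM, mostly Cd2, and Il7r was the 1 of 21 tested that rose, at 55.8, 122.8 and 60.96 against 12.6, 25.2 and 12.2 CPM (log2 2.26, SE 0.42, adjusted p = 0.0184). Cd3e stood at 6.11, 19.9 and 6.35 against 12.2, 32.3 and 10.6 CPM (adjusted p = 0.774), lower in each pair. Lung epithelial markers summed to 96.4, 116 and 99.8 against 49.3, 85.0 and 60.0 CPM. In wild-type CD11b-low cells of 12 weeks the sums were 158.5, 87.95 and 125 CPM, so a high sum was not particular to CD11b-high cells. Cdh1 made up more of the knockout sums than Scgb1a1, at 38.3, 77.0 and 54.0 against 30.9, 51.8 and 27.7 CPM (adjusted p = 0.457). Scgb1a1, the club cell secretory protein, made up 24.4, 18.98 and 22.6 against 3.66, 4.86 and 5.84 CPM (adjusted p = 0.286, and 0.00363 with the block). With the block 2 of the 14 tested members of the epithelial list passed as higher, against none without. Eosinophil markers summed to 1259, 408 and 479 against 794, 272 and 357 CPM and were mostly Ear6, which passed as higher with the block (adjusted p = 0.0328), while Siglece passed as lower with it; Prg3, Epx and Epo had no count in the 6. B and plasma cell markers summed to 86.5, 21.2 and 9.98 against 36.2, 20.0 and 9.20 CPM, with Igkc highest in replicate 1 of both gates. The part of these cells in the differences above was not tested.

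**Figure D5:**
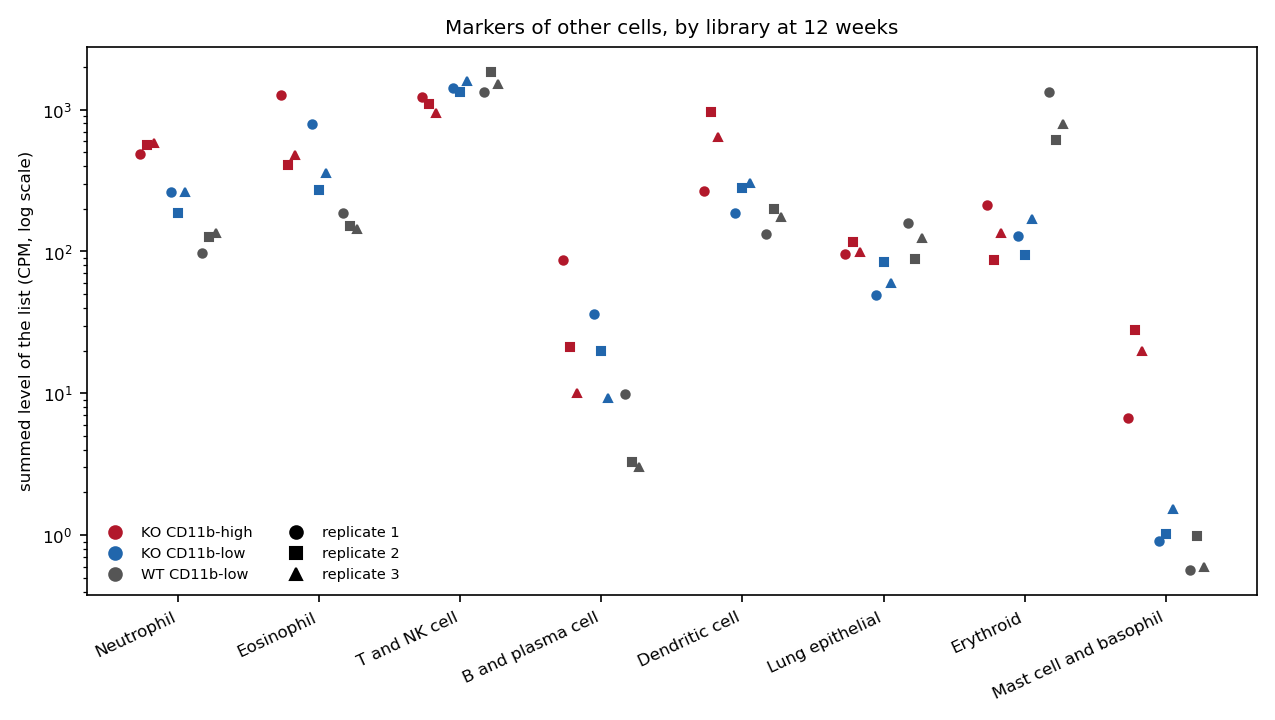
Summed level of the listed marker genes of other cells (CPM, log axis) in each library of CD11b-high knockout (red), CD11b-low knockout (blue) and CD11b-low wild-type cells (grey) at 12 weeks; symbols mark the replicate number. The neutrophil and the mast cell and basophil sums are higher in every CD11b-high than in every CD11b-low knockout library, and eosinophil and B cell sums are highest in replicate 1 of both gates.

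The other genes of the largest changes had roles outside these lists. Npy (chr6:49822710-49829507), neuropeptide Y, stood at 13.9, 28.9 and 14.4 against 1.65, 0.716 and 0.783 CPM, 18.1-fold higher (log2 4.18, SE 0.48, adjusted p = 0.00102). It was higher in each pair, with log2 ratios of 3.03, 5.21 and 4.09 in the 3 pairs. Asprv1, a protease of the retrovirus type known from skin, stood at 4.85, 18.98 and 20.4 against 0.427, 0.417 and 0.555 CPM, 31.4-fold higher (log2 4.97, SE 0.75, adjusted p = 0.00591). Its CD11b-low libraries were close to each other, and the CD11b-high libraries lay far above them. Lat2, an adaptor of immune receptor signalling, stood at 8.48, 65.2 and 42.5 against 2.62, 1.46 and 6.04 CPM (log2 3.52, SE 0.67, adjusted p = 0.0221, and 0.156 with the block; 2.92 without CD11b-high replicate 2 and 4.24 without CD11b-low replicate 3). Among the falls, Smim5, a small membrane protein, stood at 4.52, 8.53 and 5.17 against 16.2, 17.7 and 16.1 CPM, 2.75-fold lower (adjusted p = 0.0143). Cpne5, a calcium-binding copine, stood at 43.6, 86.1 and 71.3 against 115, 239 and 158 CPM, 2.55-fold lower (adjusted p = 0.0362), and Cacna1f, a voltage-gated calcium channel subunit, at 12.6, 10.97 and 8.58 against 20.9, 22.01 and 24.3 CPM, 2.1-fold lower (adjusted p = 0.0321). None of the 3 overlapped between the gates, which was a condition for naming them.

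The wild-type CD11b-low cells of the same age give the level outside the knockout. With each gate of the knockout set against them, 1970 genes passed for CD11b-high cells (14.8% of genes tested) and 412 for CD11b-low cells (3.1%); both comparisons use the same wild-type libraries and share libraries with the comparison of the gates. Itgam was 1.57 ± 0.720 CPM in wild-type cells at 12 weeks and at 4 weeks 1.53 ± 0.397 CPM in the knockout and 1.48 ± 0.582 CPM in the wild type (SD, n = 3). Against 12-week wild-type cells it was higher by 5.27 on the log2 scale in CD11b-high cells (adjusted p = 2.4e-06) and by 1.56 in CD11b-low knockout cells (adjusted p = 0.0584). Mmp12 was 8.04 ± 4.53 CPM in wild-type cells, and the differences were 7.38 (adjusted p = 9.9e-07) and 3.98 (adjusted p = 0.00033). Both knockout fractions thus stood above wild type for Mmp12, the CD11b-high cells most. Npy was at 0.0403, 0 and 0 CPM in wild-type cells, so that its fitted differences rest on almost no counts there. Ccl4 was 3.31 ± 0.869 CPM in wild-type cells, with differences of 6.20 (adjusted p = 4.3e-06) and 2.63 (adjusted p = 0.00749). Gal was 978 ± 57.6 CPM in wild-type cells at 12 weeks, with differences of -2.47 (adjusted p = 5.3e-06) in CD11b-high and -0.84 (adjusted p = 0.0599) in CD11b-low cells. The 4-week groups held 419 ± 44.7 CPM of Gal without Cybb and 549 ± 73.4 CPM with it. Ffar2 was 54.8 ± 2.45 CPM in wild-type cells, with differences of -1.84 (adjusted p = 4.5e-05) and -0.52 (adjusted p = 0.198).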

How the data were processed

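The authors deposited raw counts per gene, 1 column per library, made with STAR and featureCounts of Subread, per the submitters' processing notes; versions, strand setting and build were not given in the sources used here, so counts of overlapping genes and gene families are uncertain. Of 40780 rows, 270 that repeated a gene with the same counts were removed. Counts were fitted in R 4.3.3 with edgeR 4.0.16 (filterByExpr, minimum count 10 and minimum total 15; TMM; robust quasi-likelihood; all 15 libraries, 5 groups, 10 residual degrees of freedom; two-sided tests, Benjamini-Hochberg adjustment at 0.05). limma 3.58.1 (voom) and DESeq2 1.42.0 were alternatives. The replicate number was taken to pair the gates from the numbers in the titles, which the correlations given above cannot settle. The main fit had no term for this pairing, and blocked fits were alternatives.

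Named genes were Cybb, the sort markers, the 15 largest rises and the 12 falls without overlap, without a predicted symbol (which leaves out 1 fall, C130050O18Rik) and from 10 CPM in the higher group, and, of each of 46 lists, up to 4 members that passed or 2 by level where none did; other list members are given by their role and were chosen after their values were seen. The comparison, the genes and the lists were chosen with earlier results of these data known. Coordinates are GENCODE M21 on GRCm38 and promoters are from RefSeq. The fits were tested on data simulated without pairing of libraries. The edgeR fit of all libraries recovered 17% of 2-fold and 66% of 4-fold changes and called 4 unchanged genes. DESeq2 recovered 26% and 73% and called 19 unchanged genes. A gene that did not pass may thus still differ. Replicate libraries of a group had equal counts in 1.14 to 2.63% of tested genes, so none was a copy of another.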

Additional observations from a re-analysis of the deposited data

How the results depend on the processing

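The 92 genes between the gates were 18 in a fit of the 6 libraries without a block, all higher, 16 of them among the 92. None of the genes that fell passed in that fit. The count was 252 with the replicate block there (210 higher and 42 lower), 274 with DESeq2 (224 and 50) and 261 with DESeq2 on the genes kept here (215 and 46). It was 165 with voom (138 and 27) and 533 without a filter on low counts (458 and 75). Single libraries left out gave 2 to 247 genes, 2 to 230 higher and 0 to 19 lower. Without both libraries of a replicate, an alternative chosen after seeing the data as was DESeq2 on the genes kept, there were 161 (144 higher), 0 and 2 for replicates 1, 2 and 3 (0 in edgeR beside 910 genes at an unadjusted p under 0.05). The replicate block in all 15 libraries gave 105 genes, 75 of them among the 92. RLE factors, upper-quartile factors, a minimum count of 50 and the repeated rows kept gave 84 to 92 genes. In each of these fits every one of the 92 that was tested kept its direction, on libraries that had also served to choose them. CD11b-high against wild-type cells, 1970 genes, gave 952 to 2176 without single knockout libraries. The 952 came without CD11b-high replicate 2, and 912 came without both knockout libraries of replicate 2. No wild-type library was left out singly. Wild-type replicate 1 at 12 weeks correlated by rank with replicates 2 and 3 by 0.938 and 0.94, and those with each other by 0.985. CD11b-low knockout against wild-type cells, 412 genes, gave 859 with DESeq2, 879 on the genes kept and 1090 without a filter. It gave 230 to 439 without single knockout libraries, with 230 without CD11b-low replicate 2, and 217 without both knockout libraries of replicate 2. The log2 difference of Ccnd2, -0.03, changed sign to 0.00 at a minimum count of 50, to 0.03 without both libraries of replicate 2 and to 0.07, 0.08 and 0.15 without single libraries, over a range of -0.27 to 0.15; it passed in none of them. The cause of these shifts was not tested. Pools of mice, 3 a gate, and a gate without a wild-type counterpart limit what the comparison can show.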

Other observations

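Genes that passed but belonged to no list, chosen here after their values were seen, included several that macrophages make on activation. Wfdc17, a small secreted protein of activated macrophages, was very abundant, at 6782, 3432 and 4322 CPM in CD11b-high and 2151, 458 and 1339 CPM in CD11b-low cells (log2 1.88, adjusted p = 0.0465), with no overlap. Acod1, which makes itaconate, stood at 10.8, 36.04 and 27.2 against 4.33, 2.24 and 2.42 CPM (log2 3.04, adjusted p = 0.0133). Il1f9, a cytokine of the IL-1 family also called IL-36 gamma, stood at 5.91, 33.9 and 33.4 against 3.29, 1.91 and 2.84 CPM (log2 3.18, adjusted p = 0.0142, and 0.151 with the block). Both had their smallest difference in replicate 1. Slamf7, a receptor of the SLAM family, stood at 45.7, 64.7 and 30.96 against 16.1, 5.28 and 4.60 CPM (adjusted p = 0.0432), and Anpep, the aminopeptidase CD13, at 94.3, 147 and 108 against 40.2, 36.3 and 25.6 CPM (adjusted p = 0.00527). P2rx4, an ATP-gated channel, stood at 147, 262 and 345 against 99.9, 101 and 88.1 CPM (adjusted p = 0.0467). Srgn, the proteoglycan of secretory granules, stood at 382, 865 and 591 against 231, 148 and 215 CPM (adjusted p = 0.0149, and 0.0521 with the block). None of these 7 overlapped between the gates.

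At the low end, 2 genes that passed had no count in any CD11b-low library. Grem1, an antagonist of bone morphogenetic proteins, had 51, 40 and 24 counts in the CD11b-high libraries, at least 16.6-fold higher than a floor of 3 counts in each CD11b-low library. Ceacam15, of the carcinoembryonic antigen family, had 13, 93 and 46 counts, at least 23.3-fold higher. Among the falls, Gcm2, a transcription factor known from the parathyroid gland, stood at 2.81, 2.25 and 2.54 against 7.72, 8.26 and 6.98 CPM, 3.02-fold lower (adjusted p = 0.0149). Cd300lg, a receptor of the CD300 family, stood at 2.32, 4.64 and 2.51 against 7.26, 11.96 and 9.69 CPM, 3.06-fold lower (adjusted p = 0.0215). Their libraries did not overlap between the gates. Zranb3, a DNA repair helicase, stood at 106, 79.6 and 67.6 against 45.3, 16.3 and 24.4 CPM (log2 1.56, adjusted p = 0.0211), and Vti1b, a protein of vesicle fusion, at 23.7, 61.9 and 119 against 16.1, 17.2 and 20.5 CPM (log2 1.93, adjusted p = 0.0442, and 0.0598 with the block), the latter with its smallest difference in replicate 1. Vti1b averaged 56.3 and 60.8 CPM in the CD11b-low cells of 4-week-old knockout and wild-type mice.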
